A study of Mus musculus with 8 samples.

Results

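The neuromuscular junction is the synapse at which a motor axon excites a muscle fibre. Agrin from the nerve binds Lrp4 on the fibre, which activates the receptor kinase MuSK (Musk). With the adaptor Dok7, MuSK drives the scaffold protein rapsyn (Rapsn) to gather acetylcholine receptors under the nerve terminal. The adult receptor is built of alpha, beta, delta and epsilon subunits (Chrna1, Chrnb1, Chrnd and Chrne), and an embryonic gamma subunit (Chrng) takes the place of epsilon before birth and after denervation. Acetylcholinesterase (Ache), tethered by the collagen tail ColQ (Colq), clears the transmitter. Most of these genes are transcribed mainly by the few fibre nuclei that lie beneath the nerve.

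The 10 genes described here, Musk, Chrna1, Chrnb1, Chrnd, Chrne, Rapsn, Dok7, Lrp4, Colq and Ache, were chosen by name for their part in this synapse. Earlier results of these data were known when these genes and the lists further on were chosen. Their counts beside all genes are therefore descriptions. All 10 were measured, each by 1 transcript cluster annotated to that gene alone, among 19938 genes on the array. Gastrocnemius, a mixed calf muscle, came from 8 male mice aged 6 months, fed chow and fasted for 5 h before isoflurane anaesthesia. The 4 knockout animals were Gcn5skm-/- (HSAcre Tg/0 with Gcn5 L2/L2), in which Cre under the human skeletal actin promoter recombines floxed Gcn5 in muscle fibres. The 4 wild-type animals were Gcn5skm+/+ (HSAcre 0/0 with Gcn5 L2/L2), so both groups carry the floxed alleles and the knockouts alone carry Cre. Effects of Cre itself and of the deletion cannot be told apart, and cells other than fibres keep Gcn5, a lysine acetyltransferase of transcriptional coactivator complexes.

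Each mouse gave 1 array, whose number limits the precision, and values are log2 expression as deposited by the authors. Kat2a, the gene that encodes Gcn5, measured 5.81, 5.84, 5.79 and 5.73 in knockouts 1 to 4, against 6.50, 6.46, 6.45 and 6.43 in wild types 1 to 4 (difference -0.66, SE 0.08, limma adjusted p = 0.0319). The 10 markers of skeletal muscle fibres, most of them of fast fibres, lay between 10.3 and 12.7 on every array. Wild type 2 stood apart, with a mean correlation to the other arrays of 0.977. Wild type 4 was the next lowest at 0.981, and the rest lay between 0.985 and 0.987. Macrophage markers were higher in knockouts for 14 of 15 genes, while 54.7% of all genes were lower in knockouts. Of the 15, 0 passed a limma adjusted p threshold of 0.05. Their mean was 5.81, 5.72, 5.99 and 6.39 in knockouts 1 to 4, highest in knockout 4, and lay between 5.54 and 5.68 in wild types. Slow-fibre markers varied widely between mice of both genotypes, with list means from 5.34 to 9.0004 in knockouts and from 6.19 to 8.34 in wild types. Log2 values of different genes come from different probes and are not set against each other.

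Transcription of synaptic genes in muscle is known to use the E-box, with the letters CANNTG, bound by MyoD-family factors, and the N-box, with the letters CCGGAA, bound by the Ets-family factor GABP. Promoter windows of 250 bases before to 50 after the annotated start were available from RefSeq (GRCm38.p6) for 6 of the 10 genes, Musk, Chrna1, Chrnb1, Chrne, Dok7 and Ache, and for Chrng. Shown are Musk, which had the largest difference of the 10, Chrna1, whose mean difference lay above 0, and the epsilon and gamma subunit genes, whose ratio is given further on. They lie at chr4:58285712-58286011 on the plus strand (Musk), chr2:73580289-73580588 on the minus strand (Chrna1), chr11:70619145-70619444 on the minus strand (Chrne) and chr1:87205561-87205860 on the plus strand (Chrng). Each is written 5′ to 3′ along the gene, with E-box and N-box letters in capitals.
Musk: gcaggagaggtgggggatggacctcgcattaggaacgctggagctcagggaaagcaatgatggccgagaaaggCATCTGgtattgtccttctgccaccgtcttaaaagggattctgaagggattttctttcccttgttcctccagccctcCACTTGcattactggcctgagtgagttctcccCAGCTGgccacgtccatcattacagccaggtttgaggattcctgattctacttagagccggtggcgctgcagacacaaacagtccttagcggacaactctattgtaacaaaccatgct
Chrna1: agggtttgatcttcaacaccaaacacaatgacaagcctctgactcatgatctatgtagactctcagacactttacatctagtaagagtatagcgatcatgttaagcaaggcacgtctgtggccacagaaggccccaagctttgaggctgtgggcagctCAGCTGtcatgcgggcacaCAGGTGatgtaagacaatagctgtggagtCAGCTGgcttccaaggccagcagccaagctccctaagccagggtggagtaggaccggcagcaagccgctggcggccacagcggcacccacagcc
Chrne: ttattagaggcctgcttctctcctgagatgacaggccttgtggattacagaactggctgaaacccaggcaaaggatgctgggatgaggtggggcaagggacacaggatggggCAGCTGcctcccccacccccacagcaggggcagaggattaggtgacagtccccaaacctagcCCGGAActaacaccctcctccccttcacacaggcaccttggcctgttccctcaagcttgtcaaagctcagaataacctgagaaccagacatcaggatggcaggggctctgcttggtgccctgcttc
Chrng: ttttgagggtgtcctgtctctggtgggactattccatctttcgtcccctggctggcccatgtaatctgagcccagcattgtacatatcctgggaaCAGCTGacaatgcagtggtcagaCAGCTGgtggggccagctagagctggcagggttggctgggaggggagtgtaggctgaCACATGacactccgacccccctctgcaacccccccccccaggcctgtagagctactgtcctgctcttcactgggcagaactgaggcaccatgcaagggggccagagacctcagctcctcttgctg

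Both strands were searched, no N-box overlapped an E-box, and the CAGCTG form is counted among the E-boxes too. The Musk window held E-box letters that begin at -177, -100 and -68 from the start site, the last with the palindromic core CAGCTG. That of Chrna1 held 3 E-boxes, of which those beginning at -92 and -44 have the CAGCTG core. Chrne was the member whose window held N-box letters, from -76 to -71, beside a CAGCTG E-box at -138. Of all 32851 promoter windows in the table, 72.3% held an E-box, 16.3% the CAGCTG form and 14.9% an N-box. Of the 7 windows of member genes, 6 held an E-box, 3 the CAGCTG form and 1 an N-box. Counted by gene, 6 of the 6 with a window held an E-box in at least 1 window. These matches describe letters and do not show that a factor binds there.

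**Figure D1:**
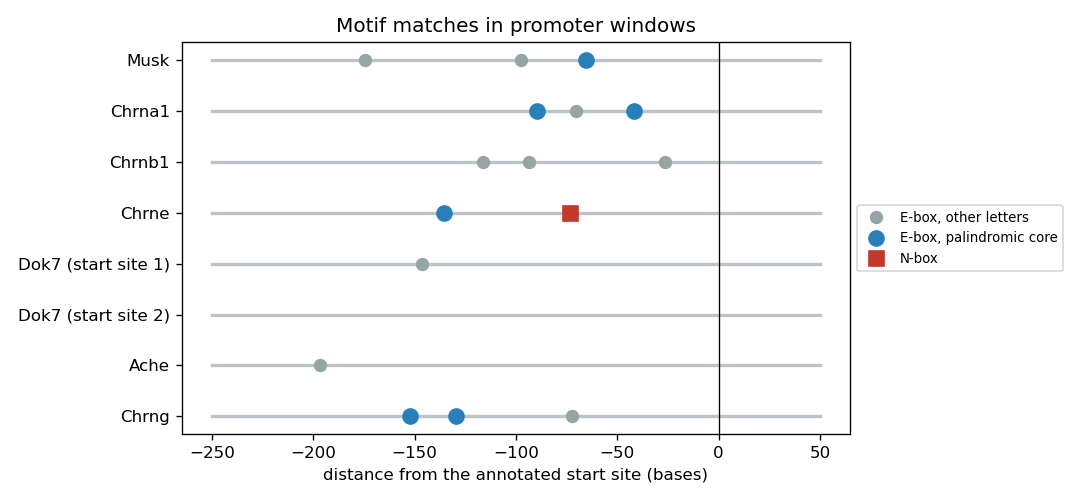
Positions of E-box and N-box letters (points) in the promoter windows (grey bars) of 6 junction genes and Chrng, with distance from the annotated start site in bases on the horizontal axis. Dok7 has 2 annotated start sites, and Chrne is the row with an N-box.

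The comparison asks how synaptic transcripts of resting muscle differ when fibres lack Gcn5. Of the 10 junction genes 0 passed a limma adjusted p threshold of 0.05, against 0.0150% of all genes (3 of 19938). At an unadjusted p under 0.05 there was 1, Musk, against 5.73% of all genes in either direction and 3.39% lower in knockouts. Knockout and wild-type values did not overlap for 0 of the 10, against 3.62% of all genes. The differences were below 0 for 7 and above 0 for 3, with a median of -0.11, where the median over all genes was -0.01 and 54.7% of genes were below 0. The median size of a difference, whatever its sign, was 0.148 for the 10 and 0.0808 for all genes. These sizes were not matched for brightness: 9 of the 10 remained when the dimmest 50% of genes were left out.

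**Figure D2:**
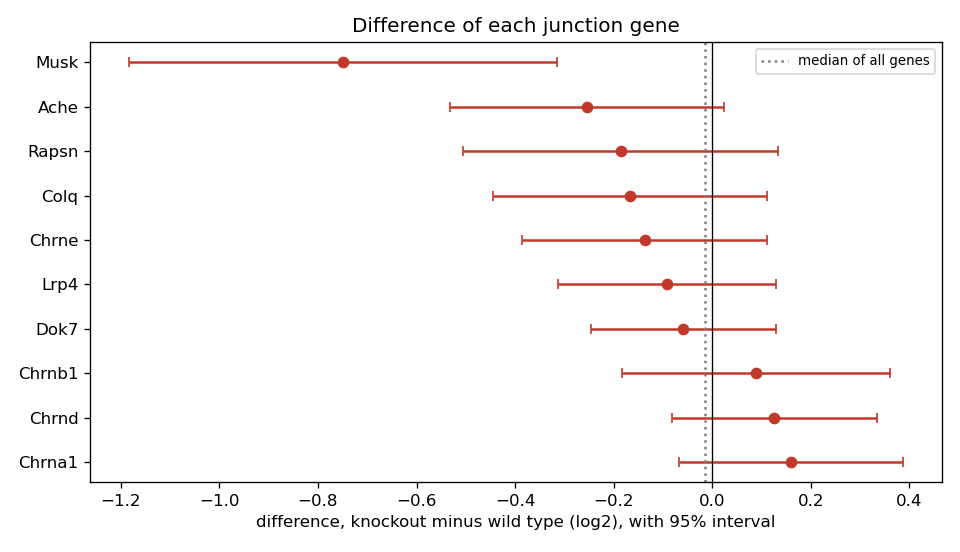
Difference of each junction gene between 4 knockout and 4 wild-type mice (log2, knockout minus wild type, points) with its 95% interval from limma (bars), the dotted line marking the median of all genes. The interval of Musk lies below 0, and those of the other 9 genes include 0.

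Musk, the receptor kinase that organises the postsynaptic membrane, had the largest difference. It measured 8.04, 7.27, 7.62 and 7.81 in knockouts 1 to 4, against 8.69, 8.69, 7.82 and 8.53 in wild types 1 to 4. All 4 knockouts lay below the wild-type mean, and the groups overlapped because wild type 3 was lower than knockout 1. The mean was 7.68 ± 0.33 in knockouts and 8.43 ± 0.42 in wild types (SD, n = 4 each). The difference was -0.75 (SE 0.20, 95% interval -1.18 to -0.31), a level 0.595 times that of wild type (interval 0.440 to 0.804). After adjustment over the whole array it missed the threshold (limma adjusted p = 0.538, unadjusted p = 0.00268), and 96 of the 19938 genes had a smaller p. The exact two-sided permutation test of the 8 values gave p = 0.0571, where 0.0286 is the smallest that 4 against 4 arrays allow. The spread of Musk within the genotypes was wider than that of 98.4% of genes. In whole muscle, fewer junctions or junctional nuclei and less Musk RNA in each cannot be told apart.

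Leaving out 1 array at a time kept the Musk difference between -0.95 and -0.61. The largest came without wild type 3, the array with the lowest wild-type value (limma adjusted p = 0.142), and over the other 7 refits the adjusted p lay between 0.574 and 0.997. Wild type 3 also had the highest mean of Schwann cell markers, 6.14, against 5.31 to 5.82 in the other wild types and 5.32 to 5.78 in the knockouts. Of the 7 Schwann markers measured 5 were lower in knockouts. The part of Schwann cells or macrophages in the Musk difference was not tested.

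**Figure D3:**
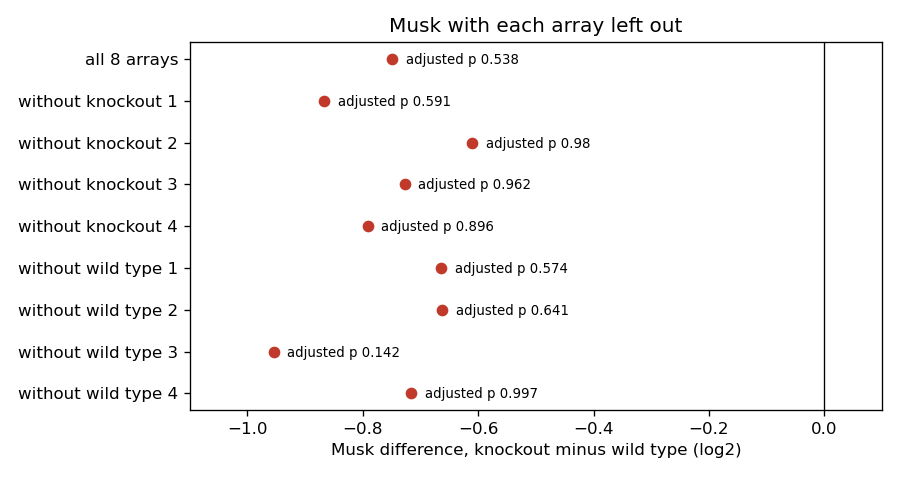
Musk difference (log2, knockout minus wild type, horizontal axis) in the fit on all 8 arrays and in the 8 fits that each leave out 1 array, with the limma adjusted p beside each point. All points lie below 0, between -0.95 and -0.61.

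The partners of MuSK at the membrane had smaller differences. Lrp4, the agrin receptor that binds MuSK, measured 5.57, 5.69, 5.71 and 5.82 in knockouts and 5.57, 5.76, 5.88 and 5.95 in wild types. Wild types 3 and 4 lay above every knockout, and wild types 1 and 2 lay within the knockout range. The difference of -0.09 had a 95% interval of -0.31 to 0.13 (limma adjusted p = 0.930), and with 1 array left out it lay between -0.17 (wild type 1) and -0.04 (wild type 4). Dok7, the cytoplasmic adaptor that MuSK needs for full activity, measured 5.93, 5.94, 5.98 and 5.77 in knockouts and 5.89, 6.06, 5.98 and 5.91 in wild types. Its difference of -0.06 had the narrowest interval of the 10, -0.25 to 0.13, or 0.843 to 1.09 times the wild-type level (limma adjusted p = 0.940), and it was -0.01 without knockout 4 and -0.02 without wild type 2. Rapsn, the scaffold that clusters the receptors, measured 6.52, 6.32, 6.07 and 6.45 in knockouts and 6.34, 6.90, 6.23 and 6.64 in wild types. Knockout 3 was the lowest and wild type 2 the highest, and the difference of -0.19 (SE 0.15) had an interval of -0.51 to 0.13 (limma adjusted p = 0.900). It was -0.06 without wild type 2, -0.09 without knockout 3 and -0.28 without wild type 3.

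Of the acetylcholine receptor genes, 3 were slightly higher in knockouts on average and 1 slightly lower, and none passed over all genes in limma. Chrna1, whose alpha subunit carries the acetylcholine binding sites, measured 6.73, 6.66, 6.60 and 6.86 in knockouts against 6.50, 6.60, 6.34 and 6.77 in wild types. All 4 knockouts lay above the wild-type mean, yet wild type 4 exceeded 3 of them, and the difference was 0.16 (SE 0.10, limma adjusted p = 0.876). With 1 array left out it lay between 0.09 (wild type 3) and 0.23 (wild type 4). Chrnb1, the beta subunit, which is phosphorylated after MuSK is activated, measured 7.20, 7.07, 6.79 and 7.31 in knockouts and 6.89, 7.27, 6.92 and 6.94 in wild types. The highest value of each group was close to that of the other, and the difference was 0.09 (interval -0.18 to 0.36, limma adjusted p = 0.939). With 1 array left out it lay between 0.02 (knockout 4) and 0.19 (knockout 3). Chrnd, the delta subunit, measured 4.88, 4.90, 4.90 and 4.72 in knockouts and 4.94, 4.68, 4.62 and 4.66 in wild types, a difference of 0.13 (interval -0.08 to 0.33, limma adjusted p = 0.890), which was 0.20 without wild type 1. Its signal was dim, near the medians of all clusters on the arrays, 4.61 to 4.72.

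Chrne, the adult epsilon subunit, measured 7.02, 6.76, 6.69 and 6.97 in knockouts and 6.81, 6.998, 6.93 and 7.25 in wild types. The ranges overlapped in their middle, and the difference was -0.14 (SE 0.11, interval -0.39 to 0.11, limma adjusted p = 0.905). It was -0.05 without wild type 4 and -0.08 without knockout 3. Chrng, the embryonic gamma subunit that is not among the 10, measured 4.89, 4.67, 4.94 and 4.81 in knockouts and 4.76, 4.41, 4.86 and 4.95 in wild types (difference 0.08, limma adjusted p = 0.939). The change from gamma to epsilon marks maturation of the synapse, so the log2 value of Chrne less that of Chrng was also compared. It was 2.13, 2.09, 1.75 and 2.15 in knockouts, against 2.05, 2.58, 2.07 and 2.30 in wild types. Only its difference between genotypes can be read, since each gene has its own probes. Chrng lay near the medians of all clusters on the arrays, 4.61 to 4.72, so the log ratio rests in part on a dim signal. That difference was -0.22, with means of 2.03 ± 0.19 in knockouts and 2.25 ± 0.25 in wild types (SD, n = 4 each), and the exact two-sided permutation test gave p = 0.286.

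The genes for the enzyme of the synaptic cleft were lower on average in knockouts without passing. Ache, which encodes acetylcholinesterase, measured 6.71, 6.64, 6.48 and 6.88 in knockouts against 6.88, 7.24, 6.65 and 6.97 in wild types. All 4 knockouts lay below the wild-type mean, and wild types 1 and 3 lay within the knockout range. The difference of -0.25 (SE 0.13) was the next largest after Musk, with an interval of -0.53 to 0.02 (limma adjusted p = 0.869). Without wild type 2, the array that stood apart, it was -0.15, smaller in size than the differences of Colq (-0.23), Chrnb1 (0.18) and Chrna1 (0.17) in that fit. Colq, the collagen tail that anchors the enzyme in the basal lamina, measured 5.56, 5.51, 5.48 and 5.50 in knockouts and 5.53, 5.48, 5.57 and 6.12 in wild types. Wild type 4 stood above the other 7 arrays, which overlapped. The difference was -0.17 (limma adjusted p = 0.893), and it was -0.02 without wild type 4.

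**Figure D4:**
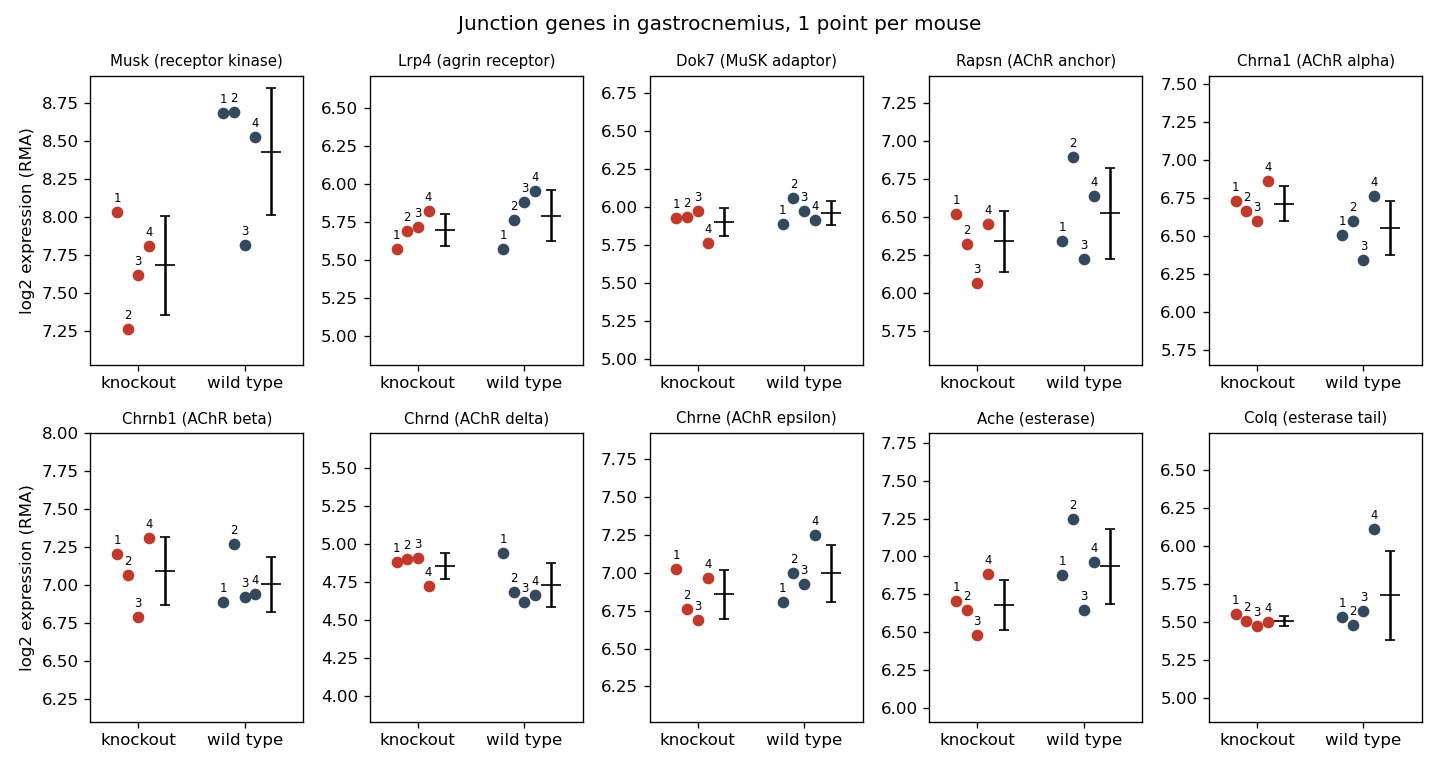
Log2 expression of the 10 junction genes on each array (points, numbered by mouse) in 4 knockout and 4 wild-type mice, with mean and SD (bars) and the same height of axis in every panel. The groups overlap in each panel, and Musk has the widest gap between means, 7.68 in knockouts and 8.43 in wild types.

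Some arrays were low or high for several junction genes at once. Among the knockouts, knockout 3 had the lowest value for 6 of the 10 genes (Chrna1, Chrnb1, Chrne, Rapsn, Colq and Ache), and knockouts 1 and 4 had the highest for 4 each. In the wild types, wild type 3 was lowest for 5 genes (Musk, Chrna1, Chrnd, Rapsn and Ache) and wild type 1 for 4, while wild type 2 was highest for 5 and wild type 4 for 4. Knockout 3 also had the highest mean of slow-fibre markers, 9.0004, and knockout 4 the lowest, 5.34. In wild types 1 to 4 that mean was 6.19, 8.34, 6.23 and 8.19. It was higher in wild types 2 and 4, often highest for junction genes, than in wild types 1 and 3, often lowest. In the knockouts the order was the opposite, since knockout 3 was often lowest for junction genes and knockout 4 often highest. Knockouts 1 and 2 had slow-fibre means of 7.36 and 8.59. The part of fibre type in the junction values was not tested.

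Further genes of MuSK signalling and the postsynaptic membrane were read from a list of 27, of which 24 were measured. In limma 0 of them passed over all genes, 5 were higher and 19 lower, and the median difference was -0.05. Over all genes 54.7% were lower. At an unadjusted p under 0.05 there were 3 of 24, all lower in knockouts, against 5.73% of all genes in either direction and 3.39% lower. The groups did not overlap for 2 of 24, against 3.62% of all genes. Sorbs2, an adaptor of the actin cytoskeleton, measured 8.22, 7.78, 7.81 and 8.28 in knockouts against 8.65, 8.66, 8.38 and 8.50 in wild types. Every knockout was below every wild type (difference -0.53, SE 0.13, limma adjusted p = 0.444). Crkl, an adaptor that binds phosphorylated Dok7, measured 7.42, 7.41, 7.31 and 7.47 in knockouts and 7.54, 7.80, 7.48 and 7.81 in wild types. It too separated the groups, by a narrow gap (difference -0.25, SE 0.10, limma adjusted p = 0.859). The third, Cd24a, a cell surface glycoprotein, differed by -0.23 (limma adjusted p = 0.861). Agrn, which encodes agrin, differed by -0.09, and Erbb2 and Erbb3, receptors for neuregulin, by -0.10 and -0.0024. These last genes are named for their role.

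The synaptic basal lamina and cholinesterase list held 13 genes, all measured, with 0 past the threshold in limma, 6 higher and 7 lower (median difference -0.02). Lama5, a laminin alpha chain of the synaptic cleft, averaged 6.07 ± 0.10 in knockouts and 6.28 ± 0.14 in wild types (SD, n = 4 each), a difference of -0.21 (limma adjusted p = 0.861). Lama4, another such chain, differed by -0.22 (limma adjusted p = 0.861). The widest difference of the list was that of Bche, a cholinesterase gene named after its values were seen (-0.53, SE 0.27, limma adjusted p = 0.869). Bche measured 4.71, 5.11, 5.05 and 4.32 in knockouts against 4.53, 6.10, 5.22 and 5.44 in wild types. Its groups overlapped, and its spread within the genotypes was wider than that of 99.5% of genes. Of 7 measured genes of the list of congenital myasthenia genes that act outside the junction, 2 were higher and 5 lower, and 0 passed. Alg2, an enzyme of N-glycosylation, differed by -0.29 (limma adjusted p = 0.861), and Slc25a1, the mitochondrial citrate carrier, by -0.19 (limma adjusted p = 0.907).

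Transcription regulators of synaptic genes were measured for 23 of 24 entries, of which 5 were higher, 18 lower and 0 past the threshold in limma (median difference -0.06). Id3, an inhibitor of MyoD-family factors, measured 4.93, 5.08, 5.20 and 4.77 in knockouts and 5.25, 5.16, 5.20 and 5.62 in wild types (difference -0.31, limma adjusted p = 0.859). Ppargc1a, a coactivator that is known to raise junction genes in muscle, differed by -0.34 (limma adjusted p = 0.869). Gabpa and Gabpb1, named for their role as the subunits of the N-box factor GABP, differed by 0.08 and -0.14. Denervation-responsive genes were measured for 14 of 16 entries, 7 higher and 7 lower, with a median of 0.0072. The widest difference among them was that of Gadd45a, a growth arrest gene, which averaged 6.36 ± 0.34 in knockouts and 5.99 ± 0.21 in wild types (SD, n = 4 each; difference 0.37, limma adjusted p = 0.861). Myog, which encodes myogenin and is induced after denervation, averaged 4.18 ± 0.17 in knockouts and 3.97 ± 0.18 in wild types (SD, n = 4 each; difference 0.21, limma adjusted p = 0.876). Its values lay below the medians of all clusters on the arrays, 4.61 to 4.72, so its signal was dim.

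**Figure D5:**
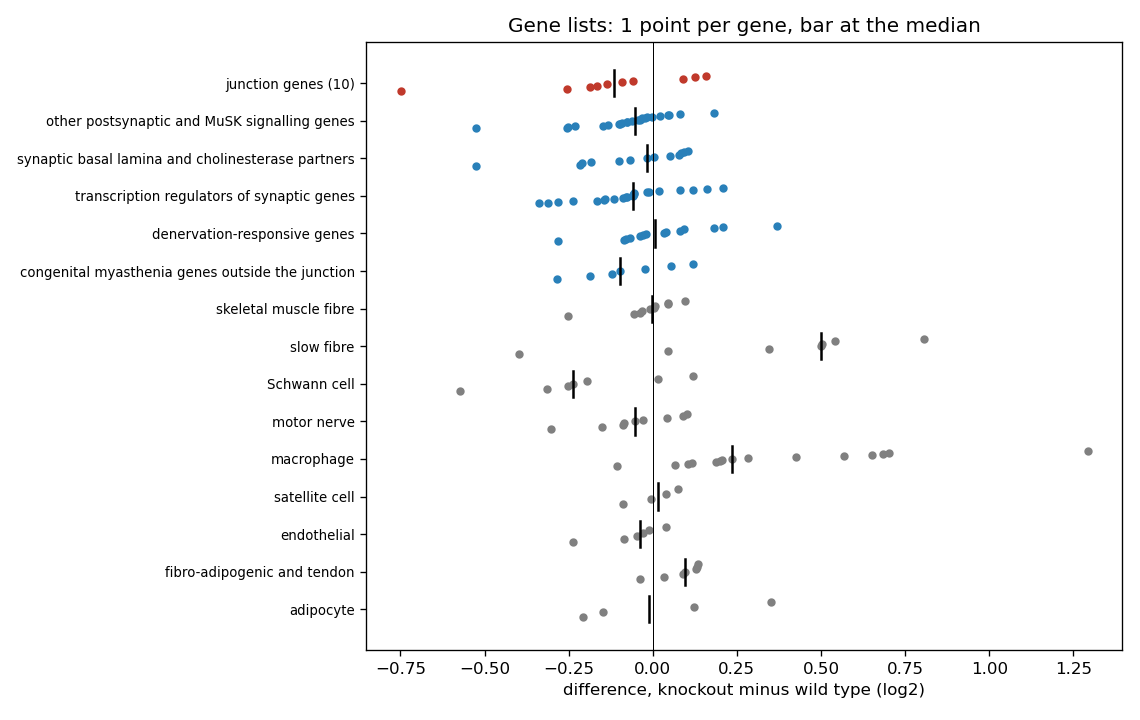
Difference of each measured gene (points, log2, knockout minus wild type) in the junction genes (red), the other synaptic lists (blue) and the markers of cell types (grey), with bars at the medians. The junction genes centre on -0.11, and the macrophage markers lie to the right, with a median of 0.236.

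Outside the 10, the genes whose values over the 8 arrays were most like those of Musk were B3galnt2 (Pearson r 0.964, Spearman rho 0.929), Eif4ebp1 (0.959 and 0.857), Gpr157 (0.953 and 0.905), Bcl6 (0.944 and 0.976) and Usp13 (0.940 and 0.952). They were picked by r among all genes, so these are descriptions without a test. After the mean of each genotype was taken off, r with Musk was 0.921, 0.941, 0.896, 0.864 and 0.880 in the same order. Bcl6, a transcriptional repressor, measured 8.003, 7.32, 7.61 and 7.65 in knockouts against 8.19, 8.55, 7.94 and 8.46 in wild types, with wild type 3 the lowest of its group, as for Musk (difference -0.64, limma adjusted p = 0.448). B3galnt2, a glycosyltransferase of alpha-dystroglycan, differed by -0.37 (limma adjusted p = 0.813). Among the junction genes, Ache (r 0.785) and Rapsn (0.658) ran closest to Musk over the 8 arrays. That r takes in the difference between the genotypes, and the arrays were normalized together. With genotype means taken off, r with Musk was 0.656 for Ache, 0.606 for Rapsn and 0.606 for Chrna1, whose r over the values themselves was -0.0623. For the other junction genes it lay between -0.411 (Lrp4) and 0.402 (Chrnb1), with Dok7 at -0.172 and Colq at 0.083.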

How the data were processed

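The values analysed were log2 signals deposited by the authors for 35556 transcript clusters on 8 Affymetrix arrays. Per the submitters' processing notes, Expression Console computed them by RMA. Settings, software version and genome build: not given in the sources used here. RMA shrinks differences of dim transcripts.

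Clusters annotated to 1 symbol (21789) were kept, and the cluster with the highest mean over the 8 arrays stood for each gene (19938). Genotypes came from the labels and the contrast of knockout minus wild type was fitted in limma 3.58.1 (lmFit, then eBayes; R 4.3.3), p-values being adjusted over all genes by Benjamini and Hochberg's method. The median SE was 0.105 log2 units. The steps were tested on simulated data. The labels call the animals biological replicates.

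Genes named are the 10, Kat2a, those of each pathway list with an unadjusted p under 0.05 filled up to 2, and the 5 most like Musk. Chrng, Agrn, Erbb2, Erbb3, Gabpa, Gabpb1 and Pax7 were added for their roles, and Nefl and Bche after their values were seen. Marker lists are given by counts and means. The members and lists were chosen with earlier results of these data known. Genes shared by lists count in each. Alternatives were other normalizations, filters, priors, array weights, a replicate block and leaving out arrays. Leaving out wild type 2 and knockout 4 together was chosen after seeing the data. Promoters are RefSeq's. Figures used matplotlib 3.10.9 in Python 3.11.15.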

Additional observations from a re-analysis of the deposited data

Results flagged for a closer look

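In 22 groups of 4 values (each junction gene and the log ratio of Chrne to Chrng, in each genotype), 4 held a value whose gap to its nearest neighbour passed Dixon's critical value at the 95% level, where chance gives about 1 in 20. Chrnd measured 4.72 in knockout 4, below the other knockouts. The log2 value of Chrne less that of Chrng was 1.75 in knockout 3, below the other knockouts. Chrnb1 measured 7.27 in wild type 2, above the other wild types, and Colq measured 6.12 in wild type 4, above the other wild types.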

How the results depend on the processing

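Of the 10 junction genes 0 passed in limma under any normalization, filter, prior, weighting, block or left-out array that was run. At an unadjusted p under 0.05 there was 1, Musk, in the fit on all arrays and in most alternatives. There were 2 in 5 alternatives, where Ache joined it (replicate block, cyclic loess, without knockout 4, without wild type 3) or Chrna1 did (without wild type 4). Signs held in every alternative except for Dok7, at 0.0209 when wild type 2 and knockout 4 were left out together. The number of genes called over the whole array, 3, was 11 and 13 without the dimmest 25% and 50% of genes, 17 with a trend and robust prior, 1 without wild type 2 and knockout 4, and 1142 at an unadjusted p under 0.05. With 1 array left out it ranged from 0 (each knockout, wild type 3 and wild type 4) to 5 (wild type 1). The cause was not tested. The median difference of the 10 genes was -0.18 without wild type 1, -0.05 without wild type 4 and -0.07 with array weights. The log ratio of Chrne to Chrng differed by -0.11 without wild type 2 and by -0.12 without knockout 3. Chrnd was not tested without the dimmest 50% of genes.

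With the replicate number as a block, 0 genes were called, and Musk differed by -0.75 (limma adjusted p = 0.384). Deviations of same-numbered arrays correlated at 0.094, 0.065, 0.222 and -0.103 for numbers 1 to 4, over 0.1 in 1 of 4. Of the 8 arrays 4 correlated best with their own number. The main fit treated the arrays as unpaired. Whether same-numbered arrays were handled together is not given in the labels and was not tested.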

Other observations

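The motor nerve has its cell bodies outside the muscle. Its 9 markers lay between 2.43 and 5.29 on every array, with 3 higher and 6 lower in knockouts and a median difference of -0.05. Nefl, a neurofilament chain named after its values were seen, measured 3.53, 3.54, 3.51 and 3.33 in knockouts against 3.54, 3.63, 3.92 and 4.02 in wild types. It differed by -0.30 (limma adjusted p = 0.859), and its signal was dim, below the medians of all clusters on the arrays, 4.61 to 4.72. The 4 markers of satellite cells, the stem cells of muscle, had a median difference of 0.02, and their mean lay between 4.61 and 4.69 in knockouts and between 4.599 and 4.69 in wild types. Pax7, the factor that defines these cells, differed by 0.04 (limma adjusted p = 0.966).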
